A study of Homo sapiens with 36 samples.

Results

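The 10 genes described here encode the factors that transcribe, copy and regulate mitochondrial DNA: TFAM, POLRMT, TFB1M, TFB2M, TEFM, TWNK, POLG, LRPPRC, NRF1 and PPARGC1B. They were chosen as regulators of mitochondrial RNA, which was already known to be higher at 10% CO2 in these data, and not by the values of the genes themselves, and all 10 of the 57500 genes in the count files were also among the 17720 that had enough counts to be tested. RNA was measured by sequencing in THP-1 cells, a human monocytic leukaemia line. The cells had been transduced with lentivirus for a non-target control hairpin (shNT), or a hairpin against the orphan nuclear receptor NR4A2 (shNR4A2) or NR4A3 (shNR4A3), and were therefore stably depleted lines. Each line was held for 4 h in buffered medium at 5% CO2 or at 10% CO2 (buffered hypercapnia), in the basal state or with LPS, a bacterial cell wall product, at 2.5 µg/ml for the last 2 h. This gave 12 conditions with 3 replicates each, or 36 libraries. All 36 libraries came from transduced cells, and no untransduced cells were analysed here. The study's figure legends describe the replicates as individual experiments, whereas the labels number them without saying what a replicate was, so a p-value measures the spread between these samples.

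Mitochondrial DNA is packaged by TFAM, which also bends the promoter DNA so that the polymerase POLRMT and its partner TFB2M can start transcription, and TEFM then keeps the polymerase on the template. The helicase TWNK and the polymerase POLG copy the genome, and LRPPRC holds the finished mRNAs in a stable, polyadenylated state. All of these proteins are made from nuclear genes, and NRF1, with co-activators such as PPARGC1B, is known for switching on many of them. In monocytes and macrophages, inflammatory stimuli are known to shift metabolism away from mitochondrial respiration.

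Libraries held 16171161 to 23929138 counts, with a median of 19639071. The targeted genes followed their labels in 7 of 8 comparisons: NR4A2 was lower in shNR4A2 than in shNT cells in all 4 conditions, and NR4A3 was lower in shNR4A3 cells in 3 of 4, the exception being 10% CO2 in the basal state (log2 fold change -0.39, adjusted p = 0.735, edgeR's quasi-likelihood test). Levels are given as TPM (transcript level corrected for gene length and library size). Basal NR4A3 was near the floor, at means of 0.587 and 0.263 TPM in shNT and 0.099 and 0.205 TPM in shNR4A3 cells (5% and 10% CO2). With LPS at 10% CO2, NR4A3 was also higher in shNR4A2 than in shNT cells (0.57, adjusted p = 0.00295, edgeR). There NR4A2 was lower in shNR4A3 cells (-0.32, adjusted p = 0.0166, edgeR). All 10 monocyte markers had a median of at least 1 TPM, with a summed level of 972 to 3380 TPM. Of 18 markers of other cell types, 3 reached that level, CD79A and PECAM1 among them. The summed level of the 18 was 81.2 to 296 TPM, nearly all of it from PECAM1 (74 to 289 TPM), which monocytes also express. In bulk samples such as these, fewer cells of a type and less RNA per cell cannot be told apart.

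Start-site sequences of the transcription factors are shown first, because the members that initiate mitochondrial transcription share a motif there. RefSeq promoter sequences (GRCh38.p14, 250 bases before to 50 bases after the start site) were held for 8 of the 10 genes, TWNK and NRF1 not among them. The motifs searched on both strands were NRF1 (GCGCANGC), ETS or GABP (CCGGAAG), YY1 (AAGATGG), CRE (TGACGTCA) and the E-box (CACGTG). The NRF1 motif occurred in 4 of the 8 promoters, against 12% of the 35116 promoters in the table, and the ETS or GABP motif in 3, against 10.3%. These are GC-rich motifs, and the 4 promoters with an NRF1 match were 65.2% to 69.2% G or C, against a median of 58.0% over the table, a difference for which the shares were not matched. YY1 was found in 1 promoter, LRPPRC (5.84% of all), and neither the CRE (1.85%) nor the E-box (7.26%) in any. A match is a description of letters, not of binding. The start sites are those of RefSeq, whereas the gene spans given with the values below come from the count files (GRCh38) and can begin elsewhere. The gap is widest for PPARGC1B, whose RefSeq start used here (chr5:149771940) is an internal site, far inside the span in the count files (from 149730298). The 250 bases before the start site of the 4 genes with an NRF1 motif read as follows, 5′ to 3′ on the gene's strand, with NRF1 and ETS or GABP motifs in capitals:
TFAM (chr10:58385160-58385409, + strand): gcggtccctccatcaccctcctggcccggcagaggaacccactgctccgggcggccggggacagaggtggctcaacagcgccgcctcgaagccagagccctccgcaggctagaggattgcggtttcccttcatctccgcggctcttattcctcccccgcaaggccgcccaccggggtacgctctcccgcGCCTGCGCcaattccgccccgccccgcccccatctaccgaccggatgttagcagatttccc
POLRMT (chr19:633538-633787, - strand): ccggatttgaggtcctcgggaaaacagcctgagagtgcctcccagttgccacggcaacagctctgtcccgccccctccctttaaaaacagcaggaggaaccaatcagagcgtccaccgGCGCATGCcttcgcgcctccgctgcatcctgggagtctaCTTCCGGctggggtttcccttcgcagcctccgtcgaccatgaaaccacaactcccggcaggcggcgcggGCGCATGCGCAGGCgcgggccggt
TFB1M (chr6:155314485-155314734, - strand): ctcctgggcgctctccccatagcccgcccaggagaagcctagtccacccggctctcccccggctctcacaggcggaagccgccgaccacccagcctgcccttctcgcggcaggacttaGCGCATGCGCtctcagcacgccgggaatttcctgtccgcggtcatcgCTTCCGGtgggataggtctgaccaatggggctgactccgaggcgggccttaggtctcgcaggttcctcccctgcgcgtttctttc
TFB2M (chr1:246566262-246566511, - strand): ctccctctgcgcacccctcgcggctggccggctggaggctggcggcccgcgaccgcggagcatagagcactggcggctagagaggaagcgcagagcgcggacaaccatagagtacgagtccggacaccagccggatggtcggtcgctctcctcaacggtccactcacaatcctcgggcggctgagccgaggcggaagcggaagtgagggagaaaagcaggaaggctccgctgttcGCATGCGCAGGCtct
TFAM held 1 NRF1 match, which began 61 bases before the start site. POLRMT held 4 NRF1 matches, 3 of them overlapping and beginning 24, 22 and 18 bases before the start site and 1 beginning at 132 bases, and 1 ETS match at 93 bases. TFB1M held 2 overlapping NRF1 matches, from 132 and 130 bases, and 1 ETS match at 85 bases. TFB2M held 2 overlapping NRF1 matches, from 15 and 11 bases. The third promoter with an ETS or GABP match was that of TEFM, at 6 bases, whereas POLG, and PPARGC1B at that internal start site, held none of the 5 motifs.

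The RNA levels of the 10 genes spanned a wide range. By TPM, which allows levels to be compared between genes because it corrects for length, LRPPRC was highest, with a median of 130 over the 36 libraries (range 112 to 147). TFB2M followed with a median of 79.2 TPM, POLG with 64.8, POLRMT with 45.5, TWNK with 39.3, TFAM with 37.6 and NRF1 with 20.8. The lowest levels were those of TFB1M (11.5 TPM), TEFM (9.79 TPM) and PPARGC1B (4.08 TPM, range 1.29 to 9.18). LRPPRC, TFAM, NRF1 and TEFM each lay above the next gene in that order in all 36 libraries. By contrast, TFB2M lay above POLG in 27 of 36, POLG above POLRMT in 32, POLRMT above TWNK in 31, TWNK above TFAM in 26 and TFB1M above TEFM in 23, so these neighbours were not separated in every library. TFB2M, the initiation factor, and TFB1M, a related methyltransferase that modifies the small ribosomal RNA, differed in level: the TFB2M to TFB1M ratio of TPM was 6.11 ± 0.87 (SD, n = 3) in shNT cells at 5% CO2 and ranged from 5.48 to 8.75 over the means of the 12 conditions. Reads from opposite-strand neighbours cannot be told apart where exons overlap, since the strand setting of the counting was not given in the sources used here. Such shared bases made up 26.1% of the exonic length of TEFM, 7.86% of TFB1M, 7.66% of POLG and 4.25% of TWNK, and 0 of the other 6 genes.

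**Figure D1:**
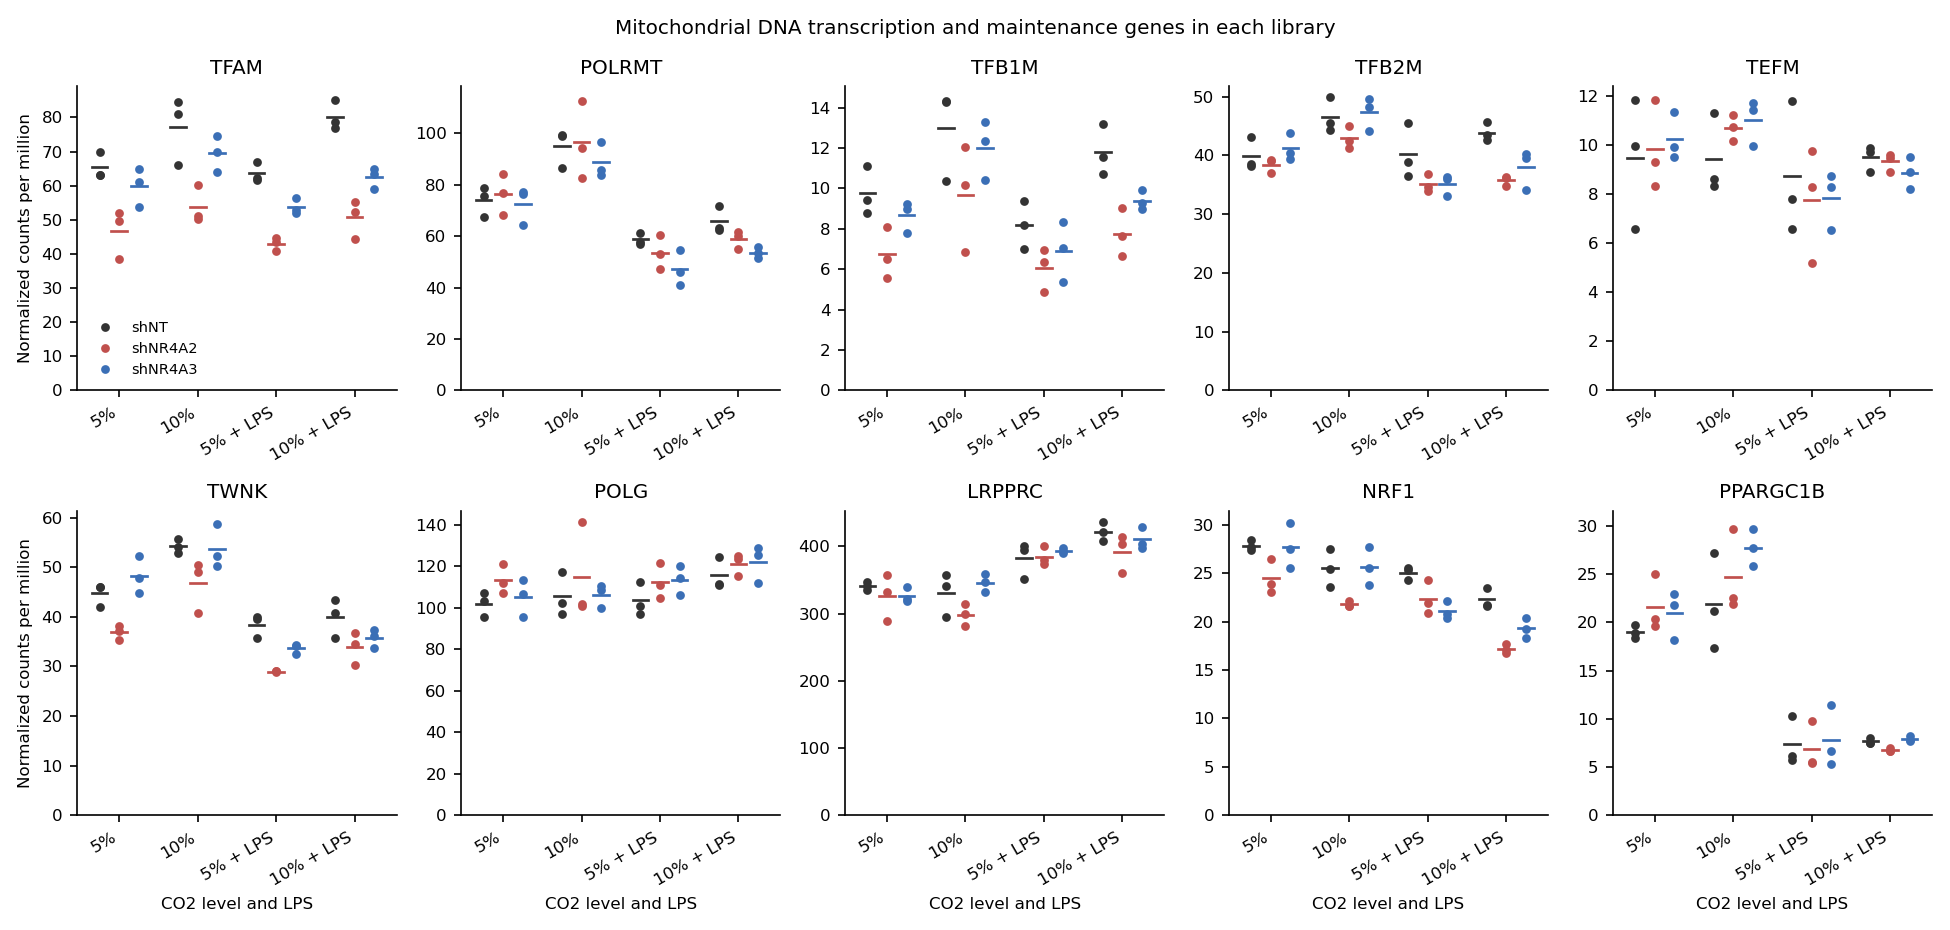
Normalized CPM (y axis, from 0) of the 10 genes in each of the 36 libraries, by CO2 level and LPS (x axis). Points are single libraries and short lines the means of 3, in shNT (black), shNR4A2 (red) and shNR4A3 (blue) cells. PPARGC1B with LPS lies at 5.33 to 11.5, below all libraries without LPS (17.3 to 29.7), and TFAM in shNR4A2 cells lies below shNT cells in every condition.

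The first comparison asked whether buffered hypercapnia changed the RNA of these genes. Averaged over the 3 lines, 6 of the 10 genes were called higher at 10% than at 5% CO2 in the basal state. They were POLRMT, TFB1M, TFAM, TFB2M, TWNK and PPARGC1B. In LPS-stimulated cells 4 were called higher (TFAM, TFB1M, POLRMT and POLG) and 1, NRF1, was called lower. The background over all genes tested was 15.9% called in the basal state and 28.9% with LPS. The differences were small, from 1.09-fold to 1.39-fold. The median log2 fold change of the 10 genes reached 0.21 without LPS and 0.13 with it, beside -0.002 and 0.003 over all genes. Called means an adjusted p under 0.05 in edgeR's quasi-likelihood test, with Benjamini-Hochberg adjustment over all genes tested. In the averages over lines, this test took the libraries of the 3 lines as independent. Same-numbered libraries of depleted and shNT cells deviated together from their group means, except for basal shNR4A2 cells at 10% CO2. The p-values over lines do not allow for this and can be too small. Values given per library are CPM, counts scaled to a common library total after normalization by the trimmed mean of M values (TMM), and serve comparisons within a gene. Groups of 3 libraries often do not overlap. This held for 13.8% to 29.9% of all genes in the CO2 comparisons of single lines. It held for 34.7% to 52% in the LPS comparisons and 23.8% to 36.4% between lines.

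TFAM, the packaging and promoter factor (chr10:58385022-58399221, + strand), was higher at 10% CO2. In LPS-stimulated shNT cells it was 61.7, 62.2 and 67.0 CPM at 5% CO2 and 76.8, 85.1 and 78.6 CPM at 10% CO2. These groups did not overlap, and the log2 fold change was 0.34 ± 0.08 (SE, adjusted p = 0.0218). Over the 9 libraries of all 3 lines with LPS, TFAM had a low of 40.9, a median of 52.9 and a high of 67.0 CPM at 5% CO2, and 44.5, 63.6 and 85.1 at 10% CO2. The lines differed in level and the pooled ranges overlapped. Within a line, the 2 groups did not overlap in shNT and shNR4A3 cells but did in shNR4A2 cells. All 9 libraries at 10% CO2 lay above the 5% mean of their own line, and the difference over lines was 0.27 ± 0.05 (adjusted p = 0.000406). Here and for the genes below, the share of all genes with all 9 libraries on the same side was not counted. In the basal state all 9 libraries again lay above their line's mean, although the 2 groups overlapped in each of the 3 lines. The medians were 61.1 CPM at 5% CO2 and 66.0 CPM at 10% CO2, with a log2 difference of 0.22 ± 0.07 (adjusted p = 0.0271).

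POLRMT, the mitochondrial RNA polymerase (chr19:617224-633604, - strand), ran from 64.5 to 84.2 CPM (median 76.3) in the 9 basal libraries at 5% CO2 and from 82.6 to 112 CPM (median 94.2) at 10% CO2. Only the ends of these ranges overlapped, and the log2 difference over lines was 0.34 ± 0.07 (adjusted p = 0.00146), or 1.26-fold. With LPS the medians were 54.8 and 60.0 CPM, the ranges overlapped, and the difference was 0.17 ± 0.06 (adjusted p = 0.0412). In basal shNR4A2 cells, whose libraries paired by replicate number, POLRMT passed the test only with the replicate number as a block (log2 fold change 0.33, adjusted p = 0.0294). In shNT cells in the basal state it was 75.7, 78.8 and 67.3 CPM at 5% CO2 and 86.6, 99.0 and 99.5 at 10% CO2, which did not overlap, with a log2 fold change of 0.37 that passed by DESeq2 (adjusted p = 0.0409) and not by edgeR (adjusted p = 0.123).

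TFB1M (chr6:155257509-155314493, - strand) showed the largest CO2 difference of the 10 genes in both states when averaged over the 3 lines; in shNR4A2 cells with LPS alone, NRF1 differed more (-0.38 against 0.35). In LPS-stimulated shNT cells it was 6.99, 8.16 and 9.37 CPM at 5% CO2 and 10.7, 13.2 and 11.6 CPM at 10% CO2, with no overlap and a log2 fold change of 0.53 ± 0.15 (adjusted p = 0.0411). Over the 9 libraries with LPS the medians were 6.99 CPM at 5% and 9.28 CPM at 10% CO2, a log2 difference of 0.45 ± 0.10 (adjusted p = 0.00227). In the basal state the medians were 8.80 and 12.1 CPM and the difference 0.48 ± 0.11 (adjusted p = 0.00484), or 1.39-fold. In each state all 9 libraries at 10% CO2 lay above the 5% mean of their line. TFB2M (chr1:246540560-246566324, - strand) was 37.0 to 43.9 CPM (median 39.2) at 5% CO2 and 41.2 to 49.96 CPM (median 45.0) at 10% CO2 in the basal state. In each of the 3 lines the 3 libraries at 10% CO2 did not overlap the 3 at 5% CO2, and the log2 difference was 0.20 ± 0.05 (adjusted p = 0.0106). The share of all genes without overlap in all 3 lines at once was not counted, here or for NRF1 below. With LPS, TFB2M did not pass the test (0.09 ± 0.05, adjusted p = 0.195).

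TEFM, the elongation factor (chr17:30897336-30906820, - strand), did not pass the test in either state, with log2 differences of 0.08 ± 0.10 and 0.19 ± 0.12. Its 95% interval for a single line was wide, from -0.42 to 0.40 in basal shNT cells, which holds the 0.24 measured for TFAM in the same cells.

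Of the replication genes, the helicase TWNK (chr10:100987367-100994401, + strand) was 35.3 to 52.2 CPM (median 44.8) at 5% CO2 and 40.7 to 58.7 CPM (median 52.3) at 10% CO2 in the basal state. All 9 libraries at 10% CO2 lay above the 5% mean of their line, and the log2 difference was 0.26 ± 0.06 (adjusted p = 0.00262). With LPS it was 0.13 ± 0.05 (adjusted p = 0.0707), which missed the threshold. POLG, the DNA polymerase (chr15:89305198-89334861, - strand), was 0.03 ± 0.07 in the basal state. With LPS it ran from 97.1 to 122 CPM (median 111) at 5% CO2 and from 111 to 129 CPM (median 123) at 10% CO2, a log2 difference of 0.13 ± 0.05 (adjusted p = 0.0475). LRPPRC (chr2:43886508-43996005, - strand), the mRNA-stabilizing protein, did not pass in either state (-0.02 ± 0.05 and 0.08 ± 0.04).

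The 2 regulators moved differently with CO2. NRF1 (chr7:129611714-129757082, + strand), a transcription factor, was lower at 10% CO2 with LPS: 20.4 to 25.6 CPM (median 22.1) at 5% CO2 and 16.8 to 23.5 CPM (median 19.2) at 10% CO2. In each line the 2 groups of 3 did not overlap, narrowly so in shNR4A3 cells (lowest 20.41 CPM at 5% and highest 20.40 CPM at 10% CO2), all 9 libraries at 10% CO2 lay below the 5% mean of their line, and the log2 difference was -0.22 ± 0.05 (adjusted p = 0.00257). In the basal state none of the 9 lay above that mean either, but the difference of -0.13 ± 0.06 missed the threshold (adjusted p = 0.138). PPARGC1B (chr5:149730298-149855022, + strand), a co-activator, was 18.2 to 25.02 CPM (median 19.8) at 5% CO2 and 17.3 to 29.7 CPM (median 25.9) at 10% CO2 in the basal state, a log2 difference of 0.27 ± 0.08 (adjusted p = 0.0311). With LPS the difference was 0.02 ± 0.15.

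**Figure D2:**
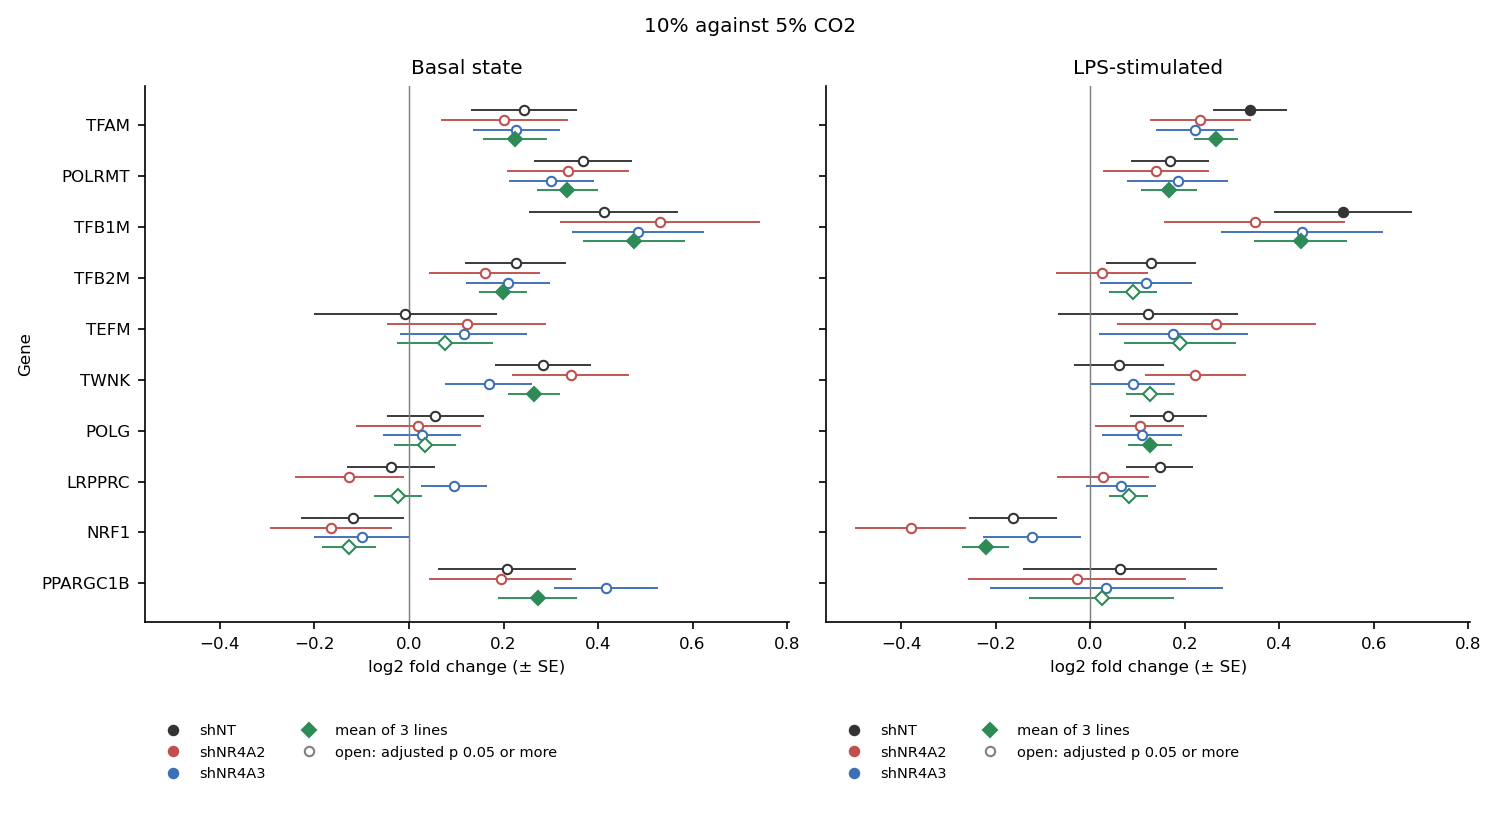
Log2 fold change (x axis, ± SE) at 10% against 5% CO2 for each of the 10 genes (y axis), in the basal state (left) and with LPS (right), for each line and for the mean of the 3 lines (green diamonds). Filled symbols have an adjusted p under 0.05; TFB1M lies furthest right in both panels among the means of the 3 lines, and NRF1 furthest left.

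Some of these calls lay near the threshold and were lost when any of several libraries was left out. Without replicate 2 of every condition, a setting chosen after the values were seen, 1 of the 10 genes was called in the basal state (POLRMT, adjusted p = 0.0247) and 4 with LPS (TFAM, POLRMT, TFB1M and PPARGC1B), at 12 libraries in place of 18. Leaving out 1 library at a time kept POLRMT, TFB1M, TFB2M and TWNK called in the basal state in all 18 fits, and TFAM, TFB1M and NRF1 with LPS. TFAM in the basal state stayed called in 10 of 18 (adjusted p up to 0.0618), being lost without shNT replicate 1 or 2 at either CO2 level, shNR4A2 replicate 1 at 10% CO2, shNR4A3 replicate 2 at 5% CO2 or shNR4A3 replicate 1 or 2 at 10% CO2. PPARGC1B stayed called in 10 of 18 (up to 0.0756), being lost without shNT replicate 1 or 2 at 5% or 1 at 10% CO2, shNR4A2 replicate 2 or 3 at 5% or 2 at 10% CO2, or shNR4A3 replicate 1 at 5% or 2 at 10% CO2. With LPS, POLRMT stayed called in 8 of 18 fits (up to 0.088), being lost without shNT replicate 1 or 3 at 5% or 1 at 10% CO2, shNR4A2 replicate 3 at 5% or 2 or 3 at 10% CO2, or shNR4A3 replicate 1 or 3 at 5% or 2 or 3 at 10% CO2. POLG stayed called in 7 of 18 (up to 0.108), being lost without shNT replicate 1 or 2 at 5% or 2 at 10% CO2, shNR4A2 replicate 1 or 2 at either CO2 level, or shNR4A3 replicate 2 or 3 at 5% or 1 or 2 at 10% CO2. TWNK with LPS was called without shNT replicate 2, shNR4A2 replicate 3 or shNR4A3 replicate 1 at 10% CO2 (adjusted p from 0.0325). Other settings also ended calls over lines: with LPS, POLRMT and POLG were not called with library size only (adjusted p = 0.155 and 0.117), with no filter (0.0638 and 0.176) or in a single fit to the 36 libraries (0.0548 and 0.112), and in that fit PPARGC1B was not called in the basal state (0.119).

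Within single lines the test had 6 libraries and called fewer genes. Only TFAM and TFB1M in LPS-stimulated shNT cells passed, where 8.19% of all genes were called. Both calls were lost without shNT replicate 1 or 2 at 5% CO2 or replicate 2 or 3 at 10% CO2, with adjusted p up to 0.107 for TFAM and 0.169 for TFB1M, and TFB1M also lost its call with library size only (0.0618) and in the single fit (0.0685). In the other 5 comparisons edgeR called 0 of the 10 genes, while the background was 0.615% for basal shNT cells, 0.0113% and 0.198% for shNR4A2 cells in the basal state and with LPS, and 1.13% and 2.13% for shNR4A3 cells. In that order 5, 3, 1, 5 and 2 members had a p under 0.05 before adjustment. By DESeq2 the members called were 1, 0, 0, 1 and 0. One such case was POLRMT in basal shNT cells, which edgeR called without replicate 1 at 10% CO2 (adjusted p = 0.0305). In shNR4A2 cells with LPS, NRF1 was 21.9, 24.3 and 20.9 CPM at 5% CO2 and 16.8, 17.1 and 17.7 CPM at 10% CO2, with a log2 fold change of -0.38 and an adjusted p of 0.152 (edgeR).

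Whether the CO2 difference itself depended on the line or on LPS was tested as an interaction. No member was called in the 4 comparisons of shNR4A2 or shNR4A3 with shNT cells by edgeR or by DESeq2, and 0 members had an unadjusted p under 0.05. In these 4 comparisons 0% of all genes were called, 192 to 458 genes having a p under 0.05 before adjustment, and by DESeq2 the count was 0 as well. The intervals were wide: for TFB1M with LPS the difference between shNR4A2 and shNT cells was -0.17 on the log2 scale, with a 95% interval from -0.68 to 0.34, and for TFAM it was -0.09, from -0.35 to 0.18. The CO2 difference with and without LPS, over all 36 libraries, likewise gave 0 called members by edgeR and DESeq2 and 0 at an unadjusted p under 0.05, where 1.99% of all genes were called. The calls in one state and not in the other for TFB2M, TWNK, POLG, NRF1 and PPARGC1B were therefore not shown to differ between the states.

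The second comparison asked what LPS did to these genes after 2 h. PPARGC1B fell in all 6 combinations of line and CO2 level, and POLRMT fell in all 6 as well. TWNK was called lower in 4 of 6 and NRF1 in 3 of 6, whereas LRPPRC was called higher in 4 of 6. Each kept its direction in all 6, with log2 fold changes of -0.57 to -0.21, -0.39 to -0.13 and 0.17 to 0.40. The members called numbered 2 and 4 in shNT cells at 5% and 10% CO2 (background 22.9% and 31.2% of all genes), 2 and 5 in shNR4A2 cells (18.2% and 35%) and 5 and 8 in shNR4A3 cells (25.3% and 42.1%). The median log2 fold change of the 10 genes ran from -0.36 to -0.10 over the 6 comparisons, beside medians of -0.02 to 0.003 over all genes. Comparisons at the 2 CO2 levels used different libraries, but each shares libraries with the CO2 comparisons above.

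PPARGC1B showed the largest difference. In shNT cells it was 18.9, 18.3 and 19.8 CPM in the basal state at 5% CO2 and 6.12, 10.3 and 5.71 CPM with LPS. At 10% CO2 it was 27.2, 21.2 and 17.3 CPM without and 7.99, 7.52 and 7.53 CPM with LPS. Every library with LPS lay below every library without it, over all 18 against 18. The share of all genes that separated over the 18 and 18 libraries was not counted. In shNT cells the fall was 2.57-fold at 5% CO2 (log2 fold change -1.36 ± 0.19, adjusted p = 9.18e-05) and 2.83-fold at 10% CO2 (-1.50 ± 0.16, adjusted p = 1.16e-06). The values in the depleted lines were -1.65 and -1.86 in shNR4A2 cells and -1.44 and -1.79 in shNR4A3 cells, at 5% and 10% CO2. Replicate 2 at 5% CO2 with LPS stood above its fellows in each line, at 10.3, 9.77 and 11.5 CPM in shNT, shNR4A2 and shNR4A3 cells, where the other 6 libraries lay at 5.33 to 6.62 CPM. Without that library the log2 fold change was -1.68, -1.98 and -1.80 in the 3 lines. In the CO2 comparison with LPS, leaving out replicate 2 of every condition moved PPARGC1B from 0.02 to 0.36 ± 0.10 on the log2 scale (adjusted p = 0.0405).

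POLRMT was 57.02 to 61.35 CPM with LPS and 67.3 to 78.8 CPM without in shNT cells at 5% CO2, and 62.5 to 71.8 CPM against 86.6 to 99.5 CPM at 10% CO2. These groups did not overlap, and the log2 fold changes were -0.33 ± 0.09 (adjusted p = 0.0152) and -0.52 ± 0.10 (adjusted p = 0.000653). In shNR4A2 cells the values were -0.52 and -0.70, and in shNR4A3 cells -0.62 and -0.71, with all 6 called. The call at 5% CO2 in shNT cells was lost without replicate 1 or 2 of the basal cells or replicate 1 or 3 of the LPS-stimulated cells (adjusted p up to 0.0582), and in shNR4A2 cells without LPS replicate 1 or 3 (up to 0.076).

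TWNK was called lower with LPS at 10% CO2 in all 3 lines (-0.43, -0.46 and -0.57 in shNT, shNR4A2 and shNR4A3 cells). It was also called lower in shNR4A3 cells at 5% CO2 (-0.52 ± 0.10, adjusted p = 0.00184). In shNR4A3 cells at 10% CO2 it was 50.3, 58.7 and 52.3 CPM without LPS and 33.8, 37.3 and 36.1 CPM with it, with no overlap. In shNR4A2 cells at 5% CO2 its log2 fold change was -0.35 (adjusted p = 0.0645), and it passed with the replicate number as a block (adjusted p = 0.0245) or without basal replicate 2 (adjusted p = 0.046).

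NRF1 was called lower in shNR4A3 cells at both CO2 levels (-0.39 at each, adjusted p = 0.0188 and 0.00441) and in shNR4A2 cells at 10% CO2 (-0.33, adjusted p = 0.0252). In shNR4A3 cells at 10% CO2 it was 25.6, 23.8 and 27.7 CPM without LPS and 18.3, 19.2 and 20.4 CPM with it, which did not overlap. The shNR4A2 call was not made by DESeq2 (adjusted p = 0.0675) and was lost without replicate 3 of the basal cells or any of the 3 LPS replicates (up to 0.0886). At 5% CO2 the shNR4A3 call was lost without basal replicate 2 or 3 or LPS replicate 1 (up to 0.0752).

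LRPPRC was called higher at 10% CO2 in shNT (0.36), shNR4A2 (0.40) and shNR4A3 cells (0.27), and in shNR4A3 cells at 5% CO2 (0.27). In shNT cells at 10% CO2 it was 357, 341 and 296 CPM without LPS and 408, 436 and 421 CPM with it, with no overlap (adjusted p = 0.00533). These rises depend on the scaling: with library size only, the median log2 fold change of all genes moved to between -0.25 and -0.18 in the LPS comparisons, and LRPPRC was then 0.14, 0.16, 0.01 and 0.08 in those comparisons and not called in any of them. The shNR4A3 call at 5% CO2 was also lost without basal replicate 1 or 2 or LPS replicate 1 or 3 (adjusted p up to 0.0822).

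In shNR4A3 cells at 10% CO2, TFB2M (-0.30, adjusted p = 0.0124) and TFB1M (-0.34, adjusted p = 0.0429) were also called lower with LPS. TFB2M was 49.6, 48.2 and 44.1 CPM without LPS and 39.5, 34.2 and 40.3 CPM with it, and its call was lost without LPS replicate 2 (adjusted p = 0.0509). TFB1M was 10.4, 13.3 and 12.3 CPM without and 8.97, 9.93 and 9.28 CPM with LPS, and its call was not made by DESeq2 (adjusted p = 0.117) and was lost without basal replicate 2 or 3 or LPS replicate 1 or 3 (up to 0.19). POLG was higher there (0.22, adjusted p = 0.0285) under TMM scaling and at -0.04 with library size only, and its call was lost without basal replicate 2 or 3 or LPS replicate 1 or 2 (up to 0.135). TFAM was not called in any of the 6 LPS comparisons, with log2 fold changes from -0.16 to 0.07, nor was TEFM (-0.38 to 0.02). With library size only, TFAM in shNT cells at 10% CO2 turned from 0.07 to -0.16, and TFAM was called lower in shNR4A2 cells at 10% CO2 (-0.32) and in shNR4A3 cells at both levels (-0.35 and -0.39). With the replicate number as a block, which paired the libraries here, TFAM (-0.13, adjusted p = 0.0386) and TEFM (-0.30, adjusted p = 0.0322) passed in shNR4A3 cells at 10% CO2, TEFM (-0.39, adjusted p = 0.0365) and TFB2M (-0.23, adjusted p = 0.0404) at 5% CO2, and TFB2M in shNR4A2 cells at 10% CO2 (-0.25, adjusted p = 0.0317). In shNR4A2 cells at 10% CO2, TFB1M was called without basal replicate 1 (-0.51, adjusted p = 0.0293) and POLG without basal replicate 2 (0.26, adjusted p = 0.0386).

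**Figure D3:**
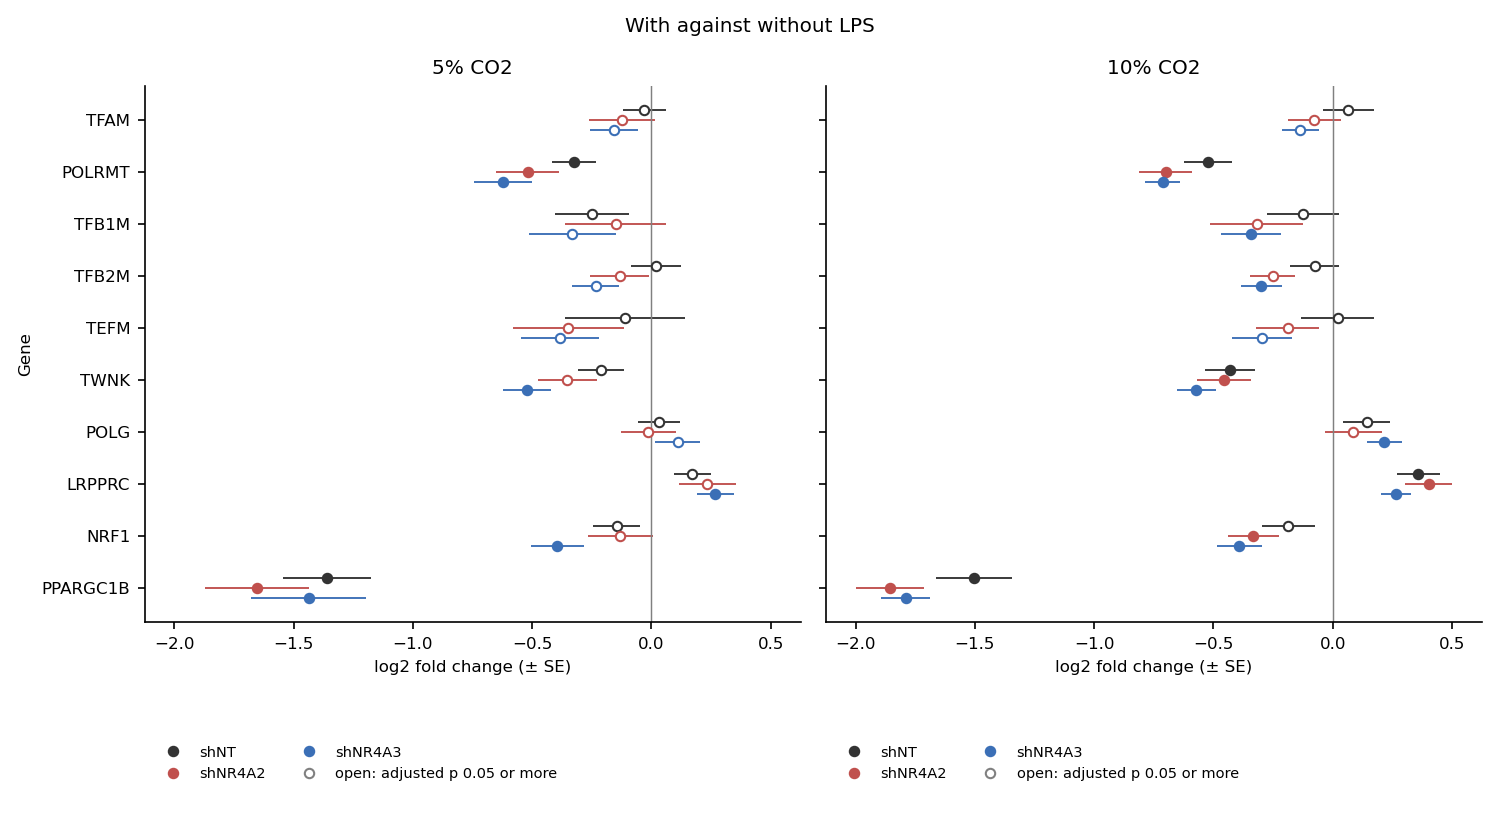
Log2 fold change (x axis, ± SE) with against without LPS for the 10 genes (y axis) at 5% (left) and 10% CO2 (right) in shNT, shNR4A2 and shNR4A3 cells. Filled symbols have an adjusted p under 0.05; PPARGC1B lies at -1.36 to -1.86 in all 6 comparisons and POLRMT at -0.33 to -0.71.

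The LPS response of the depleted lines was compared with that of shNT cells over both CO2 levels. No member was called by edgeR or by DESeq2 in either line, where 0.226% (shNR4A2) and 0.547% (shNR4A3) of all genes were. Before adjustment, 0 members in shNR4A2 cells and 4 in shNR4A3 cells had a p under 0.05: POLRMT (difference -0.24, adjusted p = 0.345 by edgeR), TFB2M (-0.24), TWNK (-0.23) and NRF1 (-0.23). The larger number of LPS calls in shNR4A3 cells was therefore not shown to be a difference between the lines.

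The third comparison asked how far the depleted lines differed from shNT cells under the same condition. Each depletion is represented by a single stable line, so its effect cannot be told apart from other differences between the lines. TFAM was lower in shNR4A2 cells in all 4 conditions, by 1.39-fold to 1.59-fold, with no overlap in any of them. In a single condition, 24.9% to 36.4% of all genes did not overlap, and the share without overlap in all 4 was not counted. In the basal state at 5% CO2 it was 52.0, 38.5 and 49.7 CPM in shNR4A2 cells and 63.0, 63.2 and 69.8 CPM in shNT cells (log2 fold change -0.48 ± 0.12, adjusted p = 0.0413). At 10% CO2 it was 60.1, 50.1 and 51.0 CPM against 84.6, 81.0 and 66.0 CPM (-0.53 ± 0.13, adjusted p = 0.00946). With LPS at 5% CO2 it was 44.7, 43.5 and 40.9 CPM against 61.7, 62.2 and 67.0 CPM (-0.56 ± 0.09, adjusted p = 0.00617). With LPS at 10% CO2 it was 55.1, 52.4 and 44.5 CPM against 76.8, 85.1 and 78.6 CPM (-0.67 ± 0.09, adjusted p = 0.000258). Both LPS calls held in all 6 fits with 1 library left out. The basal call at 5% CO2 was lost without any of the 3 shNT replicates or shNR4A2 replicate 3 (adjusted p up to 0.154), and with library size only (0.058), and that at 10% CO2 was lost without shNT replicate 2 or shNR4A2 replicate 3 (up to 0.0728).

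Other members were called lower in shNR4A2 cells in single conditions. With LPS at 10% CO2, TFB1M was 7.62, 9.02 and 6.64 CPM in shNR4A2 cells and 10.7, 13.2 and 11.6 CPM in shNT cells (-0.61 ± 0.15, adjusted p = 0.011), a call lost without shNR4A2 replicate 3 (adjusted p = 0.0613). TFB2M was 36.2, 34.8 and 36.3 CPM against 45.6, 43.4 and 42.6 CPM (-0.30 ± 0.08, adjusted p = 0.0193), and NRF1 was 16.8, 17.1 and 17.7 CPM against 23.5, 21.7 and 21.6 CPM (-0.38 ± 0.10, adjusted p = 0.0147). None of these 3 genes overlapped between the lines, as was so for 36.4% of all genes. TFB2M lost its call without shNT replicate 1 or 3 or shNR4A2 replicate 2 (up to 0.0768), and NRF1 without shNT replicate 1 or shNR4A2 replicate 2 (up to 0.0569). TWNK was lower with LPS at 5% CO2, at 29.0, 29.0 and 28.9 CPM against 35.8, 39.6 and 39.9 CPM (-0.40 ± 0.10, adjusted p = 0.0372), a call that held only without shNR4A2 replicate 2 among the 6 omissions (otherwise up to 0.163). The members called numbered 1 of 10 at 5% CO2 (background 5.69%), 1 at 10% CO2 (7.95%), 2 with LPS at 5% CO2 (6.21%) and 4 with LPS at 10% CO2 (18.9%).

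The replicate numbers paired the libraries of shNR4A2 and shNT cells in 3 of the 4 conditions, and with the number as a block further members passed. At 5% CO2 in the basal state the count rose from 1 to 3, with TFB1M (-0.54, adjusted p = 0.00467) and TWNK (-0.27, adjusted p = 0.0168). TFB1M passed with LPS at 5% CO2 (-0.43, adjusted p = 0.0246) and TWNK with LPS at 10% CO2 (-0.25, adjusted p = 0.00916). TFB1M was also called without shNR4A2 replicate 3 at 5% CO2 (-0.71, adjusted p = 0.05 after rounding) and, at 10% CO2, without shNR4A2 replicate 2 (-0.60, adjusted p = 0.0483).

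In shNR4A3 cells 2 members were called lower than in shNT cells, both with LPS at 10% CO2, where 14.5% of all genes were called. TFAM was 64.9, 63.6 and 59.1 CPM against 76.8, 85.1 and 78.6 CPM (-0.36 ± 0.08, adjusted p = 0.00731), and held in all 6 fits with 1 library left out. POLRMT was 51.6, 53.3 and 55.6 CPM against 71.8, 63.1 and 62.5 CPM (-0.30 ± 0.08, adjusted p = 0.0244), a call lost without shNT replicate 1 or 3 or shNR4A3 replicate 1 or 2 (up to 0.0972). In the other 3 conditions edgeR and DESeq2 called 0 members, with 0, 1 and 3 having a p under 0.05 before adjustment at 5% CO2, 10% CO2 and 5% CO2 with LPS, and backgrounds of 6.19%, 6.85% and 5.41%. The replicate numbers paired the libraries in all 4, and the block added PPARGC1B at 10% CO2 (0.36, adjusted p = 0.0186), TFAM (-0.24, adjusted p = 0.0211) and POLRMT (-0.32, adjusted p = 0.00821) with LPS at 5% CO2, and TFB1M (-0.33, adjusted p = 0.0458) and TFB2M (-0.21, adjusted p = 0.0493) with LPS at 10% CO2. PPARGC1B was also called at 10% CO2 without shNT replicate 1 (0.52, adjusted p = 0.00403), and POLRMT with LPS at 5% CO2 without shNR4A3 replicate 2 (-0.43, adjusted p = 0.0154). The 2 depleted lines share their shNT libraries, so their values stand side by side and were not compared with each other.

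**Figure D4:**
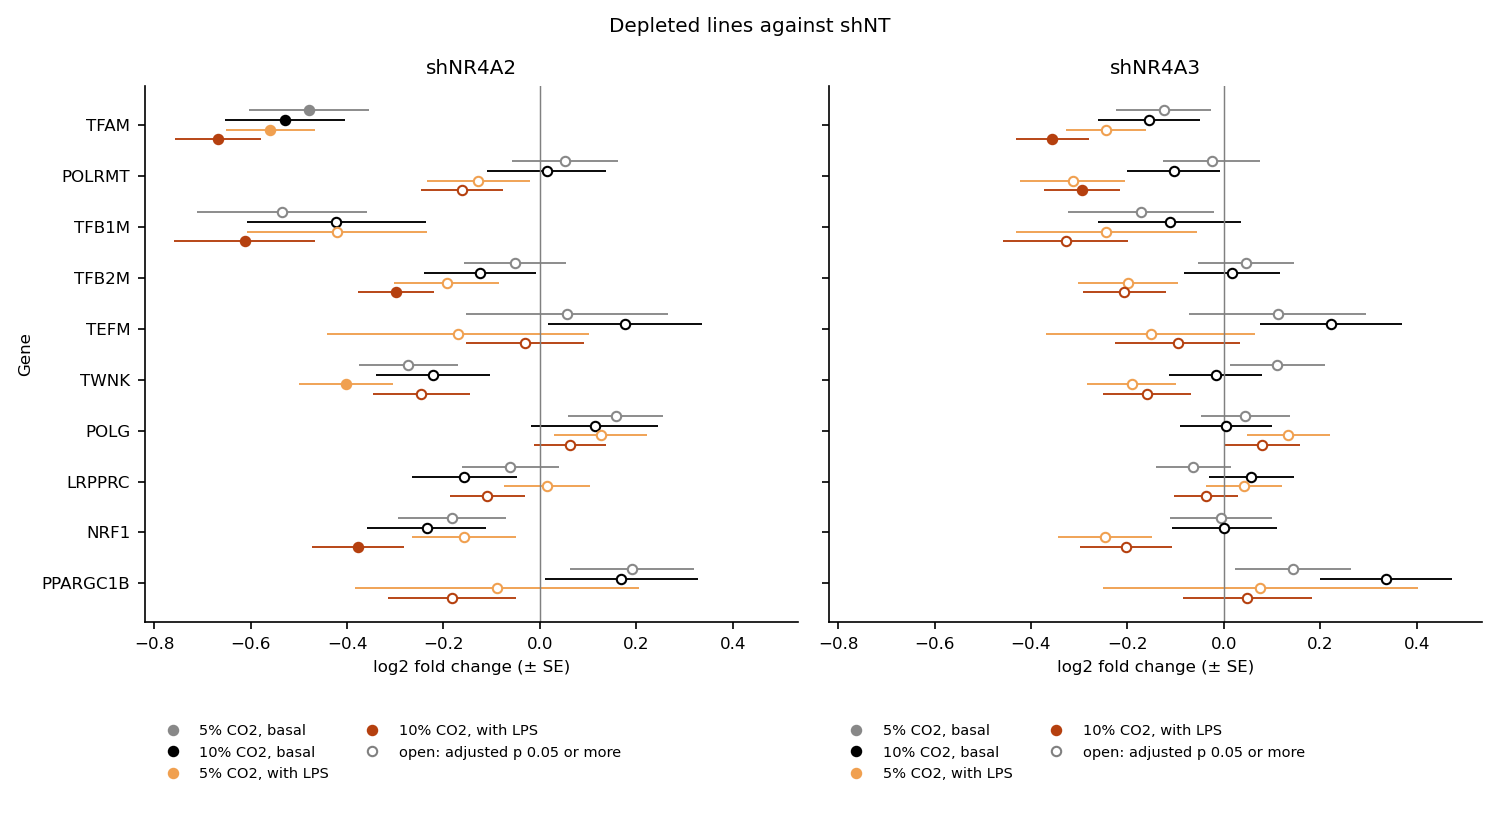
Log2 fold change (x axis, ± SE) of the 10 genes (y axis) in shNR4A2 (left) and shNR4A3 cells (right) against shNT cells in the 4 conditions. Filled symbols have an adjusted p under 0.05; TFAM in shNR4A2 cells lies at -0.48 to -0.67 and is filled in all 4 conditions.

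The product of this machinery, the 13 mRNAs encoded by mitochondrial DNA, was followed as a share of all counted reads. In basal shNT cells it was 1.43%, 1.93% and 1.29% at 5% CO2 and 3.01%, 2.88% and 1.99% at 10% CO2, which did not overlap, a ratio of means of 1.69. With LPS it was 1.58%, 1.27% and 1.75% at 5% CO2 and 2.88%, 4.10% and 2.25% at 10% CO2, again without overlap, a ratio of 2.01. Of the depleted lines, the ratios were 1.54 and 1.53 in shNR4A2 cells and 1.47 and 1.19 in shNR4A3 cells, in the basal state and with LPS, and apart from basal shNR4A2 cells these 4 pairs of groups overlapped. Averaged over lines, 7 of the 13 mRNAs were called higher at 10% CO2 in the basal state (median log2 difference 0.63) and 12 of 13 with LPS (0.62), with 0 lower. Of all genes, 15.9% and 28.9% were called there in either direction. Within single lines, 3 of the 13 were called in the basal state and 1 with LPS in shNT cells. The counts were 1 and 0 in shNR4A2 cells and 0 and 0 in shNR4A3 cells. Tested as an interaction (edgeR), 0 of the 13 were called for a CO2 difference unlike that of shNT cells. This held for both depleted lines in both states, where 0% of all genes were called. The smaller counts in the depleted lines were therefore not shown to be a difference between the lines. That this RNA was higher at 10% CO2 was known when the members were chosen. These libraries were made from polyadenylated RNA, and whether the share moved with the amount of these mRNAs or with their polyadenylation was not tested.

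**Figure D5:**
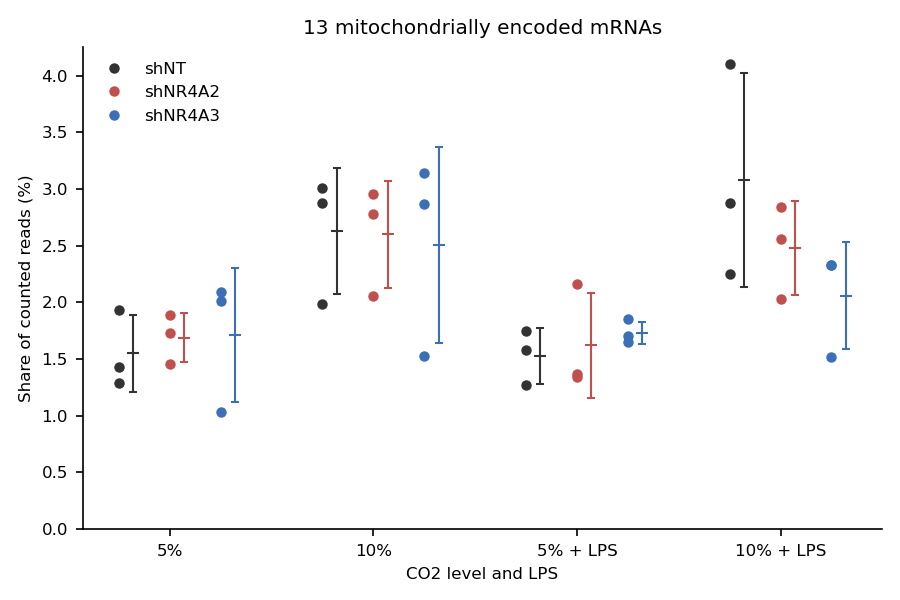
Share of counted reads (y axis, percent, from 0) from the 13 mRNAs encoded by mitochondrial DNA, by CO2 level and LPS (x axis), in shNT, shNR4A2 and shNR4A3 cells. Points are single libraries, and bars are the mean ± SD of 3; the libraries at 5% CO2 lie between 1.03% and 2.16% and those at 10% CO2 between 1.52% and 4.10%.

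The other genes of the pathway were taken as 6 lists of 65 tested genes in all (transcription and termination, replication and maintenance, nucleotide supply, RNA processing and decay, nuclear regulators, and protease and nucleoid proteins). PPARGC1A, ESRRG and PERM1 were on the lists but had too few counts to be tested. Averaged over lines at 10% against 5% CO2, 15 were higher and 1 lower in the basal state (median log2 difference 0.11), and 23 were higher and 5 lower with LPS (0.09), where 15.9% and 28.9% of all genes were called in either direction. By list in the basal state, 2 of 6 transcription and termination genes were higher, 2 of 11 replication genes, 3 of 11 nucleotide supply genes (1 lower), 6 of 20 RNA processing genes, 1 of 10 nuclear regulators and 1 of 7 protease and nucleoid genes, small counts of which several lie near that background. Those whose 9 libraries at 10% CO2 did not overlap the 9 at 5% CO2, as for 0.841% of all genes, were MTERF3 (0.49 ± 0.08, adjusted p = 0.000585), a member of the mitochondrial termination factor family, FASTKD1 (0.30, adjusted p = 0.00282), an RNA-binding protein, and PHB1 (0.29, adjusted p = 0.000302), a prohibitin of the inner membrane. With LPS, where 1.72% of all genes did not overlap, they were PHB1 (0.28, adjusted p = 0.000248) and TBRG4 (0.23, adjusted p = 0.000379), a relative of FASTKD1.

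With LPS in shNT cells the same lists moved both ways under TMM scaling, with 5 genes higher and 10 lower at 5% CO2 and 8 higher and 10 lower at 10% CO2 (medians -0.02 and -0.002). These shares of the 65 are near or below the 22.9% and 31.2% of all genes called, so the genes named next are single-gene descriptions and say nothing of the lists as groups. MYC, a transcription factor that also acts on nuclear genes for mitochondrial proteins, fell by 6.65-fold at 5% CO2 and 9.37-fold at 10% CO2. POLG2, the accessory subunit of POLG, fell by 1.86-fold (adjusted p = 9.18e-05) and 2.66-fold (adjusted p = 5.48e-07). MTERF2 fell by 1.74-fold and 2.27-fold, and FASTKD3 by 1.88-fold and 1.73-fold. Of the genes for nucleotide supply, SLC25A33, a pyrimidine carrier, rose by 1.59-fold and 1.73-fold and TYMP, which breaks down thymidine, by 1.61-fold and 1.56-fold, while TK2, the mitochondrial thymidine kinase, fell by 1.29-fold and 1.56-fold. SSBP1, the mitochondrial single-stranded DNA-binding protein, rose by 1.22-fold at both CO2 levels, and PNPT1, an RNA-degrading enzyme, by 1.23-fold and 1.40-fold. PTCD1 and PTCD2, RNA-binding proteins, were lower at both CO2 levels (1.52-fold each at 5% CO2, and 1.46-fold and 1.83-fold at 10% CO2). GABPB1, a subunit of an ETS factor, rose by 1.32-fold and 1.37-fold, and CLPX, a mitochondrial chaperone, fell by 1.31-fold and 1.23-fold. At 10% CO2, CREB1 rose by 1.44-fold, RNASEH1 by 1.24-fold, ESRRA fell by 1.35-fold and RRM2B by 1.41-fold, and at 5% CO2 MTERF1 fell by 1.29-fold and SLC25A36 by 1.32-fold. The genes were named on the condition that the 3 libraries with LPS did not overlap the 3 without, as was so for 37.7% and 44.5% of all genes.

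Between lines, 13 of the 65 were lower and 1 higher in shNR4A2 than in shNT cells with LPS at 10% CO2 (median -0.15), among them 7 of 20 RNA processing genes and 4 of 7 protease and nucleoid genes, and 10 were lower and 1 higher in shNR4A3 cells (-0.07). Over all genes 18.9% and 14.5% were called there in either direction, so both totals were near the background. The calls over all genes were split about evenly, at 1647 higher and 1697 lower in shNR4A2 cells and 1294 higher and 1278 lower in shNR4A3 cells. Those among the 65 were mostly lower, a lean that was not tested. In the other 3 conditions at most 2 of the 65 passed in either line.

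Across the 12 condition means of log2 CPM, TFAM and TFB1M followed each other (Pearson r = 0.913, n = 12), as did TFB2M and TWNK (0.907) and POLRMT and PPARGC1B (0.895), whereas LRPPRC ran opposite to PPARGC1B (-0.893) and POLG opposite to NRF1 (-0.92). These 12 points share lines, CO2 levels and LPS, so the values are descriptions. The gene most like each member over the same points was TRUB1 for TFAM (r = 0.987), SLC1A5 for POLRMT (0.984), IMP4 for TFB1M (0.99), FTSJ1 for TFB2M (0.977) and TRIM37 for TEFM (0.955). For the rest it was FAM120C for TWNK (0.979), ENTPD4 for POLG (0.961), GTF3C6 for LRPPRC (0.986), CDK17 for NRF1 (0.981) and PGBD2 for PPARGC1B (0.994).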

How the data were processed

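RNA from 36 libraries of THP-1 cells was analysed as counts per gene. Per the labels and the study's methods, the authors trimmed reads (Trimmomatic 0.36), mapped them to GRCh38 (STAR 2.5.2b) and took unique hits per gene with featureCounts (Subread 1.5.2). The deposited counts are whole numbers without normalization, 1 library per file. Which annotation was counted, and with which strand setting, is not given in the sources used here. Symbols were matched by gene ID for 56410 of 57500 genes (98.1%).

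Genes were kept by edgeR's filterByExpr over all 36 libraries (minimum count 10, minimum total 15), which left 17720. Comparisons were fitted to the libraries they name, with TMM scaling, robust dispersions and edgeR's quasi-likelihood F test (edgeR 4.0.16, R 4.3.3), and p-values were adjusted over all genes tested. DESeq2 (1.42.0), which the study's methods name, was an alternative. SE is the log2 fold change divided by the square root of F, and 95% intervals come from the same fit. TPM used the lengths in the files. The scripts were tested on simulated data. The 36 pairs of replicate libraries differed beyond sampling noise (chi-square per degree of freedom 6.25 to 27.2). Depth and counting error limit the precision of low genes such as TEFM and TFB1M.

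Further alternatives were size factors by RLE, scaling to library size alone, no filter on low counts, a replicate block, a single fit to the 36 libraries, and each library left out. Omission of replicate 2 from every condition was chosen after seeing the data. Same-numbered libraries deviated together, with every correlation over 0.1 among genes of at least 10 CPM on average, in basal shNR4A2 cells for CO2, in all LPS comparisons but shNT at 5% CO2, and in all comparisons of lines but shNR4A2 with shNT in the basal state at 10% CO2. This pairing comes from the values and not from the labels.

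The members, pathway lists, motifs and naming rules were chosen with earlier results of these data known. All 10 members are named in every comparison. From each pathway list, up to 4 called genes with the largest absolute log2 fold change and no overlap between libraries were named, in the CO2 comparison over lines and the LPS comparisons of shNT cells. The values of 1 marker gene are not reported here. For likeness the first of 3 genes with the highest r is printed.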

Additional observations from a re-analysis of the deposited data

How the results depend on the processing

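A member's call was repeated with DESeq2, RLE, library size only, no filter, the replicate block and the single fit. Of these 294 repeats, 272 kept the call in the same direction, 21 lost it and 1 reversed. Fits with libraries left out are not among them, and many of the calls above were lost in those fits. Under the same settings, 150 of 173 counts of called members stayed within 1.5 times the reported count, comparisons with 0 called members included. POLG in shNR4A3 cells at 10% CO2 turned from 0.22 higher with LPS to -0.035 with library size only, which also moved the median of all genes. Depth and 3 replicates limit the genes at the lowest levels, and the causes of the changes below were not tested. The counts of called members that moved were as follows. For CO2 in single lines, DESeq2 called 1 in basal shNT and 1 in basal shNR4A3 cells, where no filter gave 3 and the replicate block 3. Library size only and the single fit to 36 libraries each gave 1 in shNT cells with LPS, the single fit gave 1 in shNR4A2 cells with LPS, and the replicate block gave 1 in basal shNR4A2 cells. Over lines with LPS, library size only, no filter and the single fit each gave 3, and without replicate 2 of every condition 1 was called in the basal state. For LPS, library size only gave 4 in shNT cells at 5% CO2 and 8 in shNR4A2 cells at 10% CO2, and the single fit 4 in shNR4A2 cells at 5% CO2. For shNR4A2 against shNT cells in the basal state at 5% CO2, library size only gave 0 (edgeR), the replicate block 3 and the single fit 2, and at 10% CO2 the block gave 2. For shNR4A3 against shNT cells the block gave 1 in the basal state at 10% CO2, 2 with LPS at 5% CO2 and 4 with LPS at 10% CO2, no filter gave 1 with LPS at 5% CO2, and the single fit 1 with LPS at 10% CO2. In basal shNR4A3 cells and in basal shNR4A2 against shNT cells at 10% CO2 the replicate numbers did not pair the libraries, and apart from the calls given here and in the report the block changed no call of a member. Leaving out 1 library at a time gave 0 to 1 called members for CO2 in basal shNT cells, 0 to 2 with LPS, and 4 to 6 and 3 to 5 over lines. For LPS the ranges were 1 to 2 and 4 to 4 in shNT, 1 to 3 and 4 to 6 in shNR4A2, and 3 to 5 and 6 to 8 in shNR4A3 cells, at 5% and 10% CO2. For shNR4A2 against shNT cells they were 0 to 1, 0 to 2, 1 to 2 and 2 to 4, and for shNR4A3 cells 0 to 0, 0 to 1, 0 to 1 and 1 to 2, in the order 5% and 10% CO2, then the same with LPS. No member was called in any interaction with 1 library left out.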
